A study of Mus musculus with 12 samples.

Results

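Collagen VI and the fibril-associated collagens were followed across 12 arrays of mouse skin through 8 genes: Col6a1, Col6a2, Col6a3, Col6a5, Col6a6, Col12a1, Col14a1 and Col16a1. The 8 genes were chosen with earlier results of these data known. Their probes were picked by name, as every non-control probe whose deposited gene name was one of the 8. This gave 16 of the 39429 probes on the array. Of these 16, 12 had skin signal well above background on at least 3 arrays and were kept, and each of the 8 genes had at least 1 kept probe, among 22156 genes tested. The 4 probes not kept, 1 each of Col6a5, Col6a6, Col12a1 and Col16a1, were well above background on 0 or 1 of the 12 arrays and are not used further.

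The skin came from male C57BL/6 mice of about 8 weeks and formed 4 groups of 3 samples, which the submitters call biological replicates. Incised skin carried a sutured wound of 1 cm and was injected 72 h after wounding with 100 nmol of promiR-29, a miR-29b mimic, or with PBS. Intact skin was injected with 100 nmol of antimiR-29, an inhibitor of miR-29, or with PBS. Skin was taken 24 h after injection, so the wounds were 96 h old. The injections were intradermal, both controls received vehicle without an unrelated oligonucleotide, and whole skin was used, so fewer cells of a type and less RNA per cell cannot be told apart.

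Collagen VI is a beaded microfibril of the dermis, muscle and fat, assembled from the alpha-1 and alpha-2 chains with alpha-3 or, at some sites such as skin, with alpha-5 or alpha-6. Collagens XII, XIV and XVI carry interrupted collagen helices. XII and XIV sit on the surface of collagen I fibrils, where they influence how fibrils pack, and XVI is found near the dermal-epidermal junction. miR-29 is a microRNA family known for pairing with, and lowering, the messenger RNAs of many collagens.

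The 3 mature miR-29 sequences of the mouse (RefSeq, GRCm38.p6) are shown because the mimic supplies, and the inhibitor blocks, this family. Capitals mark the seed, bases 2 to 8, which all 3 share, and which pairs with the letters TGGTGCT in a messenger RNA. The genes lie on the minus strand at chr6:31062673-31062694 (29a) and chr6:31063025-31063047 (29b, first copy), and on the plus strand at chr1:195037091-195037113 (29b, second copy) and chr1:195037600-195037621 (29c).
miR-29a-3p: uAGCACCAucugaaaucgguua
miR-29b-3p: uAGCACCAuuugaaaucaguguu
miR-29c-3p: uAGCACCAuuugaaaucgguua

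The array's probes are pieces of the transcripts themselves, so they could be searched for the seed match. TGGTGCT was present on the printed strand of 214 of 39429 probes (0.543%) and in 1 of the 16 collagen probes. That probe, A_55_P2124751, lies at the 3′ end of Col16a1, and the 30 bases that hold the match (capitals) are at chr4:129776490-129776519 on the plus strand of mm9. A match in these letters is a description and not proof of a binding site.
Col16a1 A_55_P2124751: ccccacttccatggggttccccTGGTGCTg

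A pair of other probes is shown because their letters have the codon spacing of a collagen helix. Each gives a second reading of its gene, on the 5′ side of the brightest probe. For Col14a1 the 2 probes are 4471 bases apart in the genome, and their distance to the 3′ end was not determined. Capitals mark glycine codons (GGN) at the regular spacing of a collagen helix, 4 in the Col14a1 probe at chr15:55347733-55347792 and 5 in the Col16a1 probe at chr4:129756457-129756516, both plus strand, mm9.
Col14a1 A_55_P2159522: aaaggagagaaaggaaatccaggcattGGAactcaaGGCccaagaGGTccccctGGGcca
Col16a1 A_55_P2056735: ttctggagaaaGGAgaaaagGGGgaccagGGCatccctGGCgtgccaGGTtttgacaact

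The values below are log2 ratios of skin RNA (Cy5) over a universal mouse reference RNA (Cy3) on the same array, and a difference of 1 is a factor of 2. They compare groups within a gene and not one gene with another. A gene was called where its Benjamini-Hochberg adjusted p from limma, over all genes tested, was under 0.05. Per array, 65.6 to 73.8% of probes gave skin signal well above background, the signal was 3.67 to 5 times the local background, and saturation affected 0 spots. The array of intact PBS replicate 3 correlated with its group at a median of 0.92 across genes, against 0.938 or more for every other array, and many of the values below that use it are also given without it. All 12 fibroblast markers, among them Pdgfra and Dpt, were well above background on every array, as the label of whole skin implies.

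**Figure D1:**
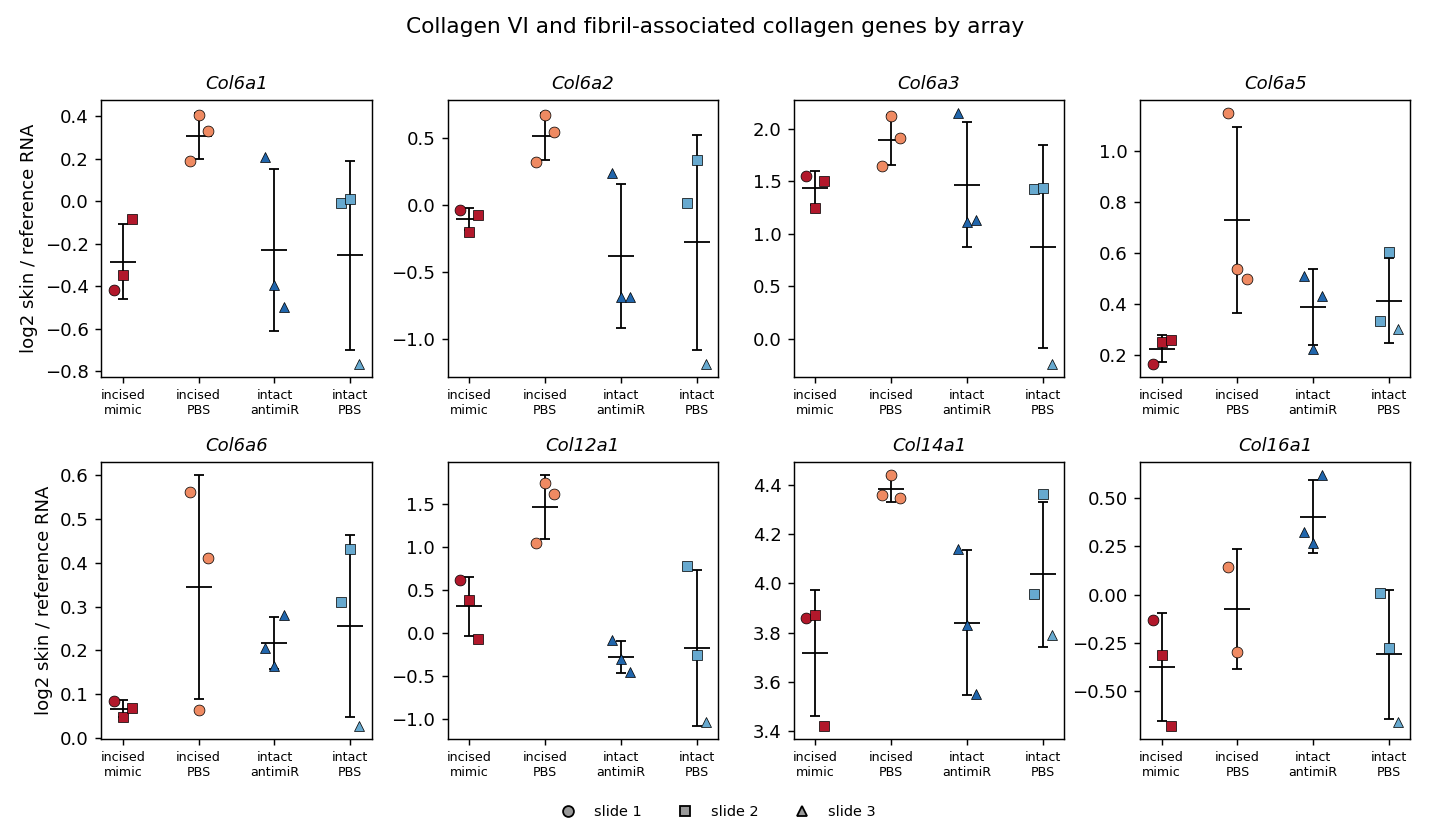
Log2 ratio of skin over reference RNA (vertical axis, a separate scale for each gene) for each of the 12 arrays in the 4 groups; points are arrays, the marker shape gives the slide, and the bars are group mean and SD. The 3 mimic arrays lie below the 3 incised PBS arrays for 6 of the 8 genes, and intact PBS array 3 is the lowest of all 12 arrays for Col6a1, Col6a2, Col6a3, Col6a6 and Col12a1.

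In incised skin, all 8 genes had a lower mean with the mimic than with PBS, as did 50.5% of all genes, and 0 of the 8 were called. The median difference over the 8 was -0.55, against -0.0022 over all genes. It was -0.53 with Col6a5 and Col6a6 at the bounds given below. Those bounds are on the Cy5 scale, so the second median mixes them with ratios to the reference. For 6 of the 8 every mimic array lay below every PBS array, where 11.5% of all genes were separated in that direction. Over all genes 0.542% were called, 43 higher and 77 lower, and 4 of the 8 collagens against 2674 of all genes were at an unadjusted p under 0.05.

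Col12a1, the chain of collagen XII, was read by A_55_P2062469 (chr9:79446895-79446954, minus strand). It had log2 ratios of 0.61, 0.39 and -0.068 on the mimic arrays, against 1.04, 1.75 and 1.61 on the incised PBS arrays. The groups did not overlap, and PBS array 1 was the PBS array nearest to the mimic arrays. The difference was -1.16 ± 0.38 (SE, n = 3 each; adjusted p = 0.227), a ratio of 0.448 that did not pass the threshold.

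Col14a1, the chain of collagen XIV, had log2 ratios of 3.86, 3.87 and 3.42 on the mimic arrays, against 4.36, 4.44 and 4.35 on the incised PBS arrays, at the probe A_55_P2124736 (chr15:55352264-55352323). The PBS arrays lay close together (SD 0.052) and above all mimic arrays, which spread more (SD 0.26). The difference was -0.67 ± 0.18 (adjusted p = 0.148), the smallest p of the 8 genes in this comparison. The helix-coding probe shown above, 4471 bases upstream, gave 0.94, 0.74 and 0.36 with the mimic against 1.88, 1.36 and 1.36 with PBS. Its difference was -0.86 ± 0.25 (adjusted p over probes 0.18), and 11.2% of all probes were separated in this direction. At both probes every mimic array was below every PBS array.

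The 3 common chains of collagen VI were also separated. Col6a1 (A_55_P2128153, chr10:76171538-76171597, minus strand) had -0.42, -0.35 and -0.085 on the mimic arrays, against 0.19, 0.40 and 0.33 with PBS. Col6a2 (A_51_P279639, chr10:76058931-76058990, minus strand) had -0.041, -0.20 and -0.080 with the mimic, against 0.32, 0.67 and 0.54 with PBS. Col6a3 (A_52_P479262, chr1:92663663-92663722, minus strand) had 1.55, 1.25 and 1.50 with the mimic, against 1.65, 2.12 and 1.92 with PBS. For Col6a1 and Col6a2 the mimic arrays were clearly apart from the PBS arrays, and for Col6a3 mimic array 1 nearly reached PBS array 1. The differences were -0.59 ± 0.22 for Col6a1 (adjusted p = 0.318), -0.62 ± 0.35 for Col6a2 (adjusted p = 0.534) and -0.46 ± 0.41 for Col6a3 (adjusted p = 0.735).

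The standard errors of these 3 chains are pooled over all 4 groups, and the intact groups scattered widely. With only the incised arrays in the fit, Col6a1 (adjusted p = 0.0486) and Col6a2 (adjusted p = 0.0383) passed the threshold, at the same differences. That fit called 451 of 22141 genes, against 120 in the fit over all arrays. The second Col6a2 probe, A_55_P2108768, 1589 bases away at chr10:76060580-76060639, gave a smaller difference of -0.26 ± 0.21 (adjusted p over probes 0.705), and its groups overlapped. It had -0.89, -0.66 and -0.45 with the mimic, against -0.53, -0.29 and -0.42 with PBS.

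Col6a5 and Col6a6, the chains that can take the place of alpha-3, were close to background. Col6a5 (A_52_P387884) was well above background on 0 of 3 mimic arrays and on 2 of 3 incised PBS arrays. Its mean Cy5 signal was 1.38-fold higher with PBS by the detection bound defined below. Its log2 ratios were 0.16, 0.25 and 0.26 on the mimic arrays against 1.15, 0.54 and 0.50 with PBS (adjusted p over probes 0.222). Col6a6 (A_51_P105847) was well above background on 0 mimic arrays and all 3 incised PBS arrays. By the same bound its mean Cy5 signal was 1.26-fold higher with PBS (adjusted p over probes 0.439 for the log2 ratio). The ratio to the reference RNA gave less, with means of 0.068 with the mimic and 0.35 with PBS. The 1.26-fold value thus belongs to the Cy5 scale and is no lower limit for the ratio of Col6a6. Its log2 ratios were 0.086, 0.048 and 0.069 with the mimic, against 0.56, 0.064 and 0.41 with PBS, so that PBS array 2 lay among the mimic arrays. These bounds set the mean of the PBS arrays against the dimmest detectable signal of each mimic array or the probe's own signal, whichever was higher. They come from the Cy5 channel after normalization without a dye swap. They compare means and carry no sampling error, so they are not lower limits of the true change.

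Col16a1 did not separate in incised skin at its brightest probe, A_55_P2056739 (chr4:129776333-129776392). The mimic arrays had -0.13, -0.31 and -0.68, against 0.14 and -0.30 on PBS arrays 1 and 2. PBS array 3 had no value there because its spot was marked as an outlier. The difference was -0.30 ± 0.23 (adjusted p = 0.67). The helix-coding probe separated narrowly, with -0.62, -0.51 and -0.74 on the mimic arrays against -0.31, -0.49 and -0.22 with PBS. PBS array 2 nearly reached mimic array 2, and 11.2% of all probes were separated in this direction. The difference was -0.28 ± 0.13 (adjusted p over probes 0.434). At the third kept probe, A_55_P2124751, the groups overlapped.

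The arrays were run on 3 slides of 4. Only slide 1 held both incised groups, with mimic array 1 and the 3 PBS arrays. Values within this slide rest on that 1 mimic array, which is also in the main fit. The share of all genes lower within this slide was not counted. Within it all 8 genes were again lower with the mimic, from -0.86 for Col12a1 to -0.058 for Col16a1, and the fit with slide as a fixed block gives these same values, with 0 genes called. Fibroblast markers moved with this comparison: 4 of 12 were called lower (0.348% of all genes were), their median difference was -0.71, and their score per array ran from -0.51 to -0.29 with the mimic, against 0.14 to 0.25 with PBS. Skeletal muscle markers were lower as well, with 3 of 10 called and scores of -0.44 to -0.12 against 0.19 to 0.34. The part of these cell types in the collagen values was not tested.

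In intact skin 0 of the 8 genes were called with the inhibitor, and Col16a1 stood at the edge of the threshold. The median difference over the 8 was -0.033, against 0.011 over all genes. With Col6a6 at its bound, on the Cy5 scale, it was -0.014. Of the 8, 3 were positive and 5 negative, where 52% of all genes were positive. Of all genes 9.39% were called, and 5292 were at an unadjusted p under 0.05, as was 1 of the 8 collagens. The antimiR arrays lay above the PBS arrays for 1 of the 8, Col16a1, where 14% of all genes were separated in that direction.

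Col16a1 encodes the chain of collagen XVI. At its brightest probe the antimiR arrays had 0.32, 0.27 and 0.62, against 0.0079, -0.28 and -0.66 on the intact PBS arrays. Every antimiR array was above every PBS array. The difference was 0.71 ± 0.20, a ratio of 1.64, and its adjusted p of 0.0552 missed the threshold among genes. Without intact PBS array 3 it was 0.54 (adjusted p = 0.116).

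At the probe that holds the seed match, 67 bases further downstream, Col16a1 rose. The antimiR arrays had 0.56, 0.58 and 0.47, against -0.086, -0.23 and -0.33 on the intact PBS arrays. Both groups were tight, with SDs of 0.055 with antimiR and 0.12 with PBS. The difference was 0.75 ± 0.16 with an adjusted p of 0.0119 over 28811 probes, of which 5.08% were called higher. Over the same probes A_55_P2056739 also passed (adjusted p = 0.0485). The helix-coding probe shown above, which lies on the 5′ side of both, had -0.19, -0.24 and -0.33 with antimiR against -0.37, -0.58 and -0.90 with PBS. It was separated in the same direction, at 0.36 ± 0.13 (adjusted p = 0.106), where 13% of all probes were separated upward.

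The call at A_55_P2124751 held in 11 of 12 processing alternatives and with each of the 6 arrays left out, at 0.69 to 0.81. It ended when Cy5 was used without the reference dye (0.40, adjusted p = 0.451). The call at A_55_P2056739 ended in 5 of 12 alternatives and 5 of 6 omissions. On slide 3, which held the 3 antimiR arrays and intact PBS array 3, the difference was 0.86 at A_55_P2124751, 1.06 at A_55_P2056739 and 0.65 at the helix-coding probe. Among all 175 kept probes with the seed match, 14 were called higher with antimiR (8%, against 5.08% of all kept probes) and 10 lower, with a median difference of 0.034 against -0.0042 over all kept probes. With the mimic 0 of the 175 were called, and their median was -0.015.

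Cell type markers moved in this comparison too. Macrophage markers had 3 of 8 called higher with antimiR (Fcgr1, Trem2 and Cd68, at 2.49, 1.47 and 1.26), as were 5.03% of all genes. The list was split, with 5 higher in mean and 3 lower: Mrc1 (-0.62), Csf1r (-0.23) and Lyz2 (-0.15). Macrophage scores were -0.69 to 0.098 on the antimiR arrays against -1.05 to -0.28 on the intact PBS arrays. Of 10 skeletal muscle markers all were lower in mean and 2 were called, where 4.36% of all genes were called lower. Their scores were -0.30 to -0.0041 with antimiR against 0.14 to 0.40 with PBS. Of 12 fibroblast markers Pdgfrb was called higher (1.28) and Scara5 lower (-0.97). The part of these cells in the Col16a1 values was not tested.

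**Figure D2:**
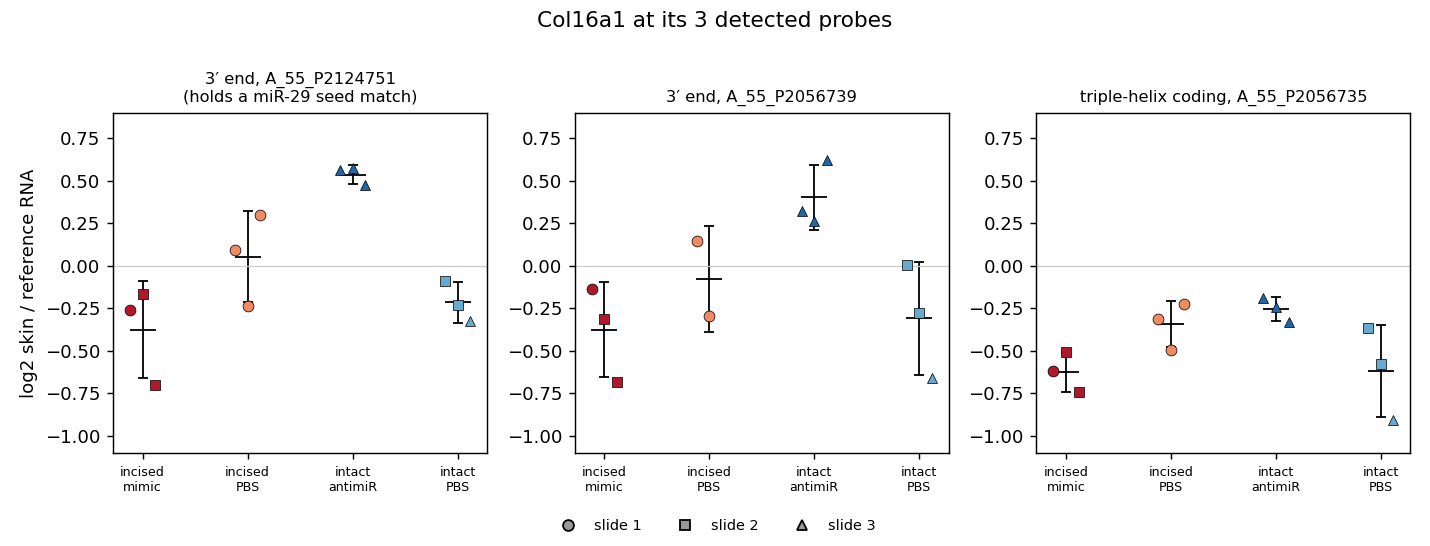
Log2 ratio of skin over reference RNA at the 3 kept Col16a1 probes (1 panel each, the same vertical scale), by group; points are arrays, marker shape gives the slide, bars are mean and SD. At all 3 probes the 3 antimiR arrays lie above the 3 intact PBS arrays, and the gap is widest at the probe with the seed match, where antimiR arrays run from 0.47 to 0.58 and intact PBS arrays from -0.33 to -0.086.

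The collagen VI chains did not separate with the inhibitor, and their values varied within each intact group. Col6a3 had 2.15, 1.11 and 1.13 on the antimiR arrays, against 1.43, 1.44 and -0.24 on the intact PBS arrays. One high antimiR array and one low PBS array thus made up most of its difference of 0.59 ± 0.41 (adjusted p = 0.434). Without intact PBS array 3 the difference was 0.033. Within slide 3, where that array is the only PBS array, it was 1.71, and with slide as a fixed block it was called (adjusted p = 0.0239).

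Col6a1 had 0.21, -0.39 and -0.50 with antimiR, against -0.011, 0.011 and -0.77 with PBS, a difference of 0.026 ± 0.22. Col6a2 had 0.24, -0.69 and -0.69, against 0.011, 0.33 and -1.19, a difference of -0.10 ± 0.35. The same arrays, antimiR array 1 and intact PBS array 3, were the extremes of intact skin as for Col6a3, except that intact PBS array 2 was the highest for Col6a2. Without intact PBS array 3 the differences were -0.23 for Col6a1 and -0.56 for Col6a2.

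Mean differences of the remaining genes in intact skin were near 0. Col12a1 had -0.087, -0.30 and -0.45 with antimiR, against 0.77, -0.26 and -1.04 with PBS, and Col14a1 had 4.14, 3.83 and 3.55, against 3.96, 4.36 and 3.79. Both pairs of groups overlapped, at -0.10 ± 0.38 for Col12a1 and -0.20 ± 0.18 for Col14a1. The Col12a1 value was -0.53 without intact PBS array 3, 0.37 without intact PBS array 1 and 0.76 with slide as a fixed block. Col6a5 had 0.51, 0.22 and 0.43 with antimiR against 0.33, 0.60 and 0.30 with PBS, and Col6a6 had 0.20, 0.16 and 0.28 against 0.31, 0.43 and 0.028. Col6a6 was well above background on 0 antimiR arrays and 1 intact PBS array. Within slide 3 all 8 genes were positive, from 0.048 for Col14a1 to 1.71 for Col6a3. These values rest on intact PBS array 3 alone as the reference. It was the lowest of all 12 arrays for Col6a1, Col6a2, Col6a3, Col6a6 and Col12a1. The share of all genes positive within this slide was not counted.

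Incised skin was compared with intact skin under PBS at 96 h after wounding. No slide held both PBS groups, so wound and slide are not separated in the main fit. With slide as a fixed block far fewer of all genes were called, as counted at the end. That fit links the PBS groups only through the mimic arrays. All 8 genes were higher in mean in incised skin, as were 50.5% of all genes, and 1 was called. The median over the 8 was 0.45, against 0.0037 over all genes, and 15.1% of all genes were called, 9.81% higher. The groups were separated for 3 of the 8 (Col6a1, Col6a3 and Col12a1), all higher in incised skin, where 19.9% of all genes were separated that way. The incised PBS arrays serve here as the tested side and in the mimic comparison as controls, and the intact PBS arrays serve here and in the antimiR comparison, so these contrasts are not independent of each other.

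Col12a1 rose 3.12-fold in incised skin. Its log2 ratios were 1.04, 1.75 and 1.61 on the incised PBS arrays, against 0.77, -0.26 and -1.04 on the intact PBS arrays. The intact arrays spread widely (SD 0.91), and the highest of them was still below the lowest incised array. The difference was 1.64 ± 0.38 (adjusted p = 0.0158). Without intact PBS array 3 it was 1.21 (adjusted p = 0.0326). The call ended without incised PBS array 2 (1.50, adjusted p = 0.0573) or 3 (1.57, adjusted p = 0.0534), with the authors' deposited table (0.74, adjusted p = 0.0732), with only the compared groups fitted (adjusted p = 0.078) and with slide as a fixed block (0.76, adjusted p = 0.555). No slide held both PBS groups.

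Across the 4 groups the mean Col12a1 log2 ratio was 0.31 ± 0.35 in incised mimic and 1.47 ± 0.37 in incised PBS skin, and -0.28 ± 0.18 in intact antimiR and -0.18 ± 0.91 in intact PBS skin (SD, n = 3 each). The incised PBS arrays stood above all others. Intact PBS, with the widest spread, overlapped both the incised mimic and the intact antimiR groups.

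Col6a3 was 1.02 ± 0.41 higher in incised skin (adjusted p = 0.121), Col6a2 0.79 ± 0.35 (adjusted p = 0.15) and Col6a1 0.56 ± 0.22 (adjusted p = 0.116). None of the 3 passed the threshold, and without intact PBS array 3 the differences were 0.46, 0.34 and 0.31. The second Col6a2 probe differed by -0.0081. Col14a1 differed by 0.34 ± 0.18, Col6a5 by 0.32 ± 0.16, Col16a1 by 0.23 ± 0.23 and Col6a6 by 0.089 ± 0.13, with adjusted p from 0.211 to 0.687. Macrophage markers were higher in incised skin, with 5 of 8 called (9.81% of all genes were called higher), and Schwann cell markers were lower, with 5 of 6 called (5.29% of all genes), while the fibroblast list had 1 call each way and a median of 0.051. These list counts come from the main fit, in which wound and slide are not separated. The part of these cells in the values was not tested.

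**Figure D3:**
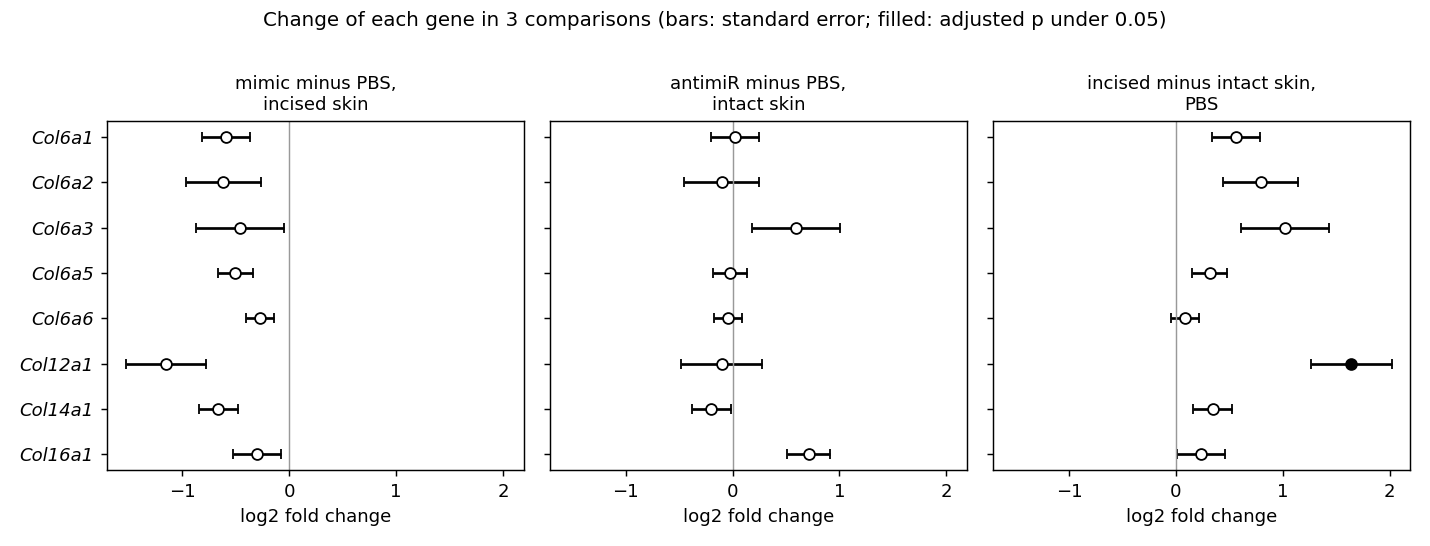
Log2 fold change (horizontal axis) of each of the 8 genes in 3 comparisons (1 panel each), with standard errors from limma as bars; filled points passed an adjusted p under 0.05. All 8 points are left of 0 for the mimic and right of 0 for incised over intact skin, where Col12a1 at 1.64 is the only filled point.

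The mimic effect and the antimiR effect were set against each other in 1 test across all 4 groups. The mimic was given only in incised skin and the antimiR only in intact skin. Agent and skin state therefore cannot be told apart in this difference. All 8 genes had a more negative value with the mimic, as did 52.6% of all genes, with a median of -0.57 against -0.016 over all genes, and 0 were called, where 1.07% of all genes were. Of the 8, 1 was at an unadjusted p under 0.05, as were 3131 of the 22129 genes tested. It was Col16a1, with a difference of effects of -1.01 ± 0.30 (adjusted p = 0.155). At its probe with the seed match the mimic arrays had -0.26, -0.16 and -0.70, against 0.095, -0.23 and 0.30 with PBS in incised skin, a difference of -0.43 ± 0.16 (adjusted p = 0.292). Set against the rise of 0.75 with antimiR, the effects differed by -1.18 ± 0.22, which passed over probes (adjusted p = 0.028), where 0.483% of all probes were called lower. That call ended in 7 of 12 omissions of 1 array, with Cy5 alone (-0.80, adjusted p = 0.438), with slide as a fixed block (adjusted p = 0.187) and with the replicate number as a block (adjusted p = 0.0513).

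For Col12a1 the difference of effects was -1.05 ± 0.53 and for Col6a3 -1.05 ± 0.59, and for the others it lay between -0.24 and -0.62. Adjusted p-values for these 7 ran from 0.384 to 0.716. Without intact PBS array 3 the values were -0.49 for Col6a3, -0.62 for Col12a1, -0.36 for Col6a1, -0.12 for Col6a6 and -0.065 for Col6a2, against -1.05, -1.05, -0.62, -0.24 and -0.52 with it.

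Over the 12 arrays the 3 common collagen VI chains varied together, with Pearson correlations of 0.93 for Col6a1 with Col6a2, 0.89 for Col6a2 with Col6a3 and 0.86 for Col6a1 with Col6a3. These are descriptions over arrays that share the groups, the reference RNA and 3 slides. The 2 dim chains, Col6a5 and Col6a6, correlated at 0.77 with each other and at 0.31 to 0.56 with the 3 common chains. Col12a1 correlated with the common chains at 0.71 to 0.81, and Col14a1 at 0.50 to 0.73.

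Averaged over the 3 chains and centred on the 12 arrays, collagen VI stood at -0.049, -0.18 and 0.032 on the mimic arrays, against 0.31, 0.65 and 0.52 on the incised PBS arrays. It stood at 0.45, -0.40 and -0.43 on the antimiR arrays, against 0.063, 0.18 and -1.15 on the intact PBS arrays. The array at -1.15 also had the highest adipocyte marker score, 0.89, and a fibroblast score of -0.033. Incised PBS array 2 had the next highest adipocyte score, 0.72, with the highest collagen VI value of all arrays, 0.65. Intact PBS array 3 also had the highest Schwann cell score of the 12 arrays, 1.09, and the lowest macrophage score, -1.05. The part of these cells in the collagen VI values was not tested.

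**Figure D4:**
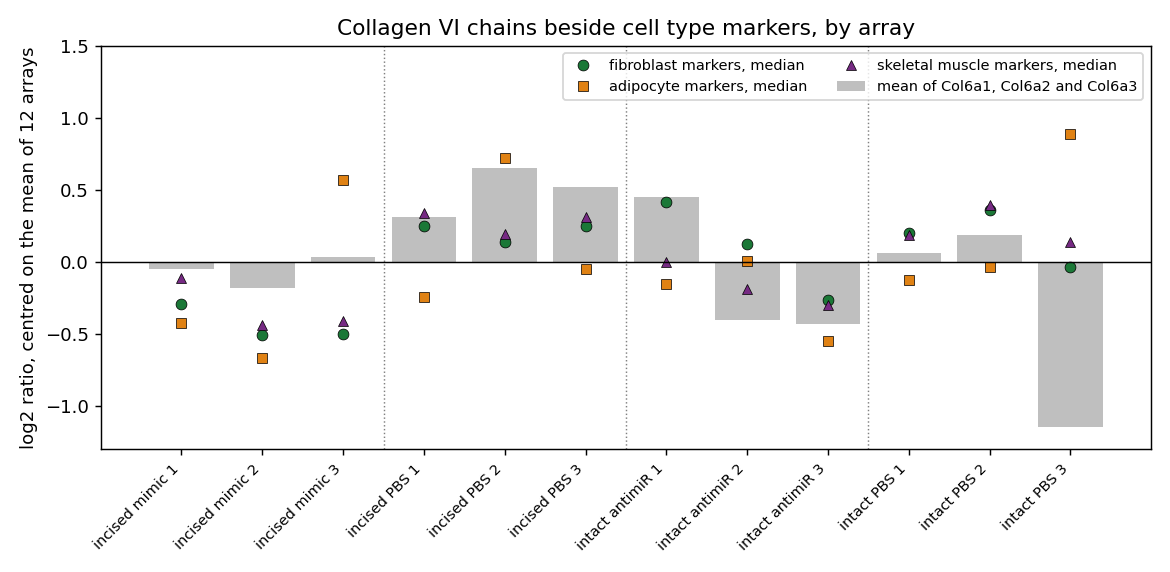
Mean of Col6a1, Col6a2 and Col6a3 per array (grey bars) with the median score of fibroblast, adipocyte and skeletal muscle markers (points), all as log2 ratios centred on the mean of the 12 arrays; dotted lines separate the 4 groups. Collagen VI runs from -0.18 to 0.032 on the mimic arrays and from 0.31 to 0.65 on the incised PBS arrays, and intact PBS array 3 is at -1.15.

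The upstream sequence of the 2 chains that varied most closely, Col6a1 and Col6a2, is shown as the 250 bases before the RefSeq start (GRCm38.p6, minus strand, chr10:76726045-76726294 and chr10:76623631-76623880). Capitals mark matches, on either strand, to the AP-1 motif TGACTCA, the GC box GGGCGG, the CCAAT box and the TATA box TATAAA.
Col6a1 upstream: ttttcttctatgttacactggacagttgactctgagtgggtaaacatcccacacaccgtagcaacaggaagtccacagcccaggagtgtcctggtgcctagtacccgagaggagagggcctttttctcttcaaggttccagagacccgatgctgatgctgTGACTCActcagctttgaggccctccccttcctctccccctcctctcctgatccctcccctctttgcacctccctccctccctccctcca
Col6a2 upstream: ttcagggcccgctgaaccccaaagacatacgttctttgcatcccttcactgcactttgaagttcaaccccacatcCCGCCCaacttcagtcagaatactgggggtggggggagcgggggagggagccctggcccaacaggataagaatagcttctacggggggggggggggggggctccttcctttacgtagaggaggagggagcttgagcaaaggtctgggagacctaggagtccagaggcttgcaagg

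The match in Col6a1 is an AP-1 motif 90 bases before the start, which 4.46% of 32851 windows of this length hold. The match in Col6a2 is a GC box 175 bases before the start, held by 32.7% of windows. Col6a3 held none of the 4 motifs, so no motif searched was shared by the 3 chains in these windows.

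Genes whose log2 ratios followed each collagen most closely over the 12 arrays were found among 15260 genes by Pearson correlation. For Col6a1 they were Ccdc102a (0.96), Nrep (0.94) and Fbn1 (0.92), for Col6a2 Slc5a9 (0.96), Dpysl3 (0.95) and Ndrg4 (0.94), and for Col6a3 Rcn1, Ndrg4 and Postn (0.91 each). For Col12a1 they were Mdga1 (0.95), Krt5 (0.94) and Ccn4 (0.93), and for Col14a1 Ptges3l (0.96), Mfap5 (0.95) and Meg3 (0.94). Among those closest to the dim Col6a5 were Phka1 (0.86) and Prg2 (0.85), and Col6a6 was followed by Ephb2 (0.91), Tcea3 (0.89) and Eef2 (0.88). Fbn1 and Postn encode matrix proteins, fibrillin-1 and periostin, and Mfap5 a microfibril protein that is also on the fibroblast marker list. Col16a1 lacks 1 value and was left out of this search.

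The neighbours of these collagens in the matrix were read from 4 lists. Their values and calls come from the main fit, so those for incised against intact skin do not separate wound from slide. The first held 7 fibril collagens that the 8 genes border on, the chains of collagens I, III, V and XI. With the mimic all 7 were lower in mean than with PBS, with a median of -1.05, and 0 were called. Those of smallest p were Col5a2 at -1.05 ± 0.28 (adjusted p = 0.144) and Col5a1 at -1.04 ± 0.32 (adjusted p = 0.206), chains of a collagen that helps set fibril diameter. With antimiR all 7 were positive, with a median of 0.58 and 0 called, and the smallest p were those of the collagen I chains Col1a2 at 1.20 ± 0.44 (adjusted p = 0.118) and Col1a1 at 1.16 ± 0.51 (adjusted p = 0.196). By comparison, the antimiR differences of the 8 genes ran from -0.20 for Col14a1 to 0.71 for Col16a1, with Col6a3 at 0.59 and the other 6 between -0.20 and 0.026. This contrast between the lists was not tested.

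In incised against intact skin 3 of the 7 fibril collagens were called, all higher, where 9.81% of all genes were called higher. They were Col5a3 at 0.93 ± 0.24 (adjusted p = 0.0254), Col5a2 at 1.05 ± 0.28 (adjusted p = 0.032) and Col3a1, the chain of collagen III, at 1.88 ± 0.57 (adjusted p = 0.0489). In the difference of effects 0 were called, with a median of -1.68. The smallest p were those of Col5a2 at -1.68 ± 0.40 (adjusted p = 0.0821) and Col1a2 at -2.48 ± 0.62 (adjusted p = 0.0914).

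Of 11 receptors, 0 were called with the mimic. The collagen-binding integrin subunit Itga11 had the smallest p, at -1.15 ± 0.25 (adjusted p = 0.0776), followed by Itga3 at 0.49 ± 0.20 (adjusted p = 0.371). With antimiR, Itga1, a collagen-binding integrin subunit, fell by 0.65 ± 0.16 (adjusted p = 0.0299), and Antxr1, a receptor known to bind collagen VI, rose by 0.54 ± 0.14 (adjusted p = 0.0405), where 4.36% of all genes were called lower and 5.03% higher. In incised against intact skin Itga1 rose by 0.69 ± 0.16 (adjusted p = 0.0176) and Itgb1, the shared beta subunit, by 0.52 ± 0.13 (adjusted p = 0.0215), while Itga3, part of an integrin that mainly binds laminins, fell by 1.12 ± 0.20 (adjusted p = 0.00596), as did 5.29% of all genes by the same threshold. None of the 11 was called in the difference of effects, where Antxr1 stood at -0.81 ± 0.20 (adjusted p = 0.0921) and Itga3 at 1.11 ± 0.29 (adjusted p = 0.0994).

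Of 13 matrix partners, 0 were called with the mimic, with a median of -0.21. Hspg2, the basement membrane proteoglycan perlecan, stood at -0.62 ± 0.16 (adjusted p = 0.133) and Tgfbi, which binds collagen VI, at 0.31 ± 0.12 (adjusted p = 0.315). With antimiR 0 were called, and those of smallest p were Comp, which binds fibril collagens, at 0.41 ± 0.12 (adjusted p = 0.059) and Tgfbi at 0.32 ± 0.12 (adjusted p = 0.113). In incised against intact skin Tnc, the wound matrix protein tenascin-C, rose by 1.20 ± 0.25 (adjusted p = 0.0114) and Hspg2 by 0.79 ± 0.16 (adjusted p = 0.0101), where 9.81% of all genes were called higher. In the difference of effects 0 were called, with Hspg2 at -0.85 ± 0.23 (adjusted p = 0.112) and Lum, the small proteoglycan lumican, at -1.47 ± 0.56 (adjusted p = 0.252).

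Of 8 related collagens outside the 8 genes, 4 were measured (Col9a2, Col19a1, Col20a1 and Col22a1), and 0 were called in any of the 4 comparisons. The smallest p with the mimic were those of Col22a1, at -0.65 ± 0.18 (adjusted p = 0.15), and Col20a1, at -0.067 ± 0.090. With antimiR the smallest was that of Col19a1, at -0.39 ± 0.14 (adjusted p = 0.11), and in incised against intact skin it stood at -0.45 ± 0.14 (adjusted p = 0.0525), with Col9a2 at -0.21 ± 0.074 (adjusted p = 0.0807). In the difference of effects Col22a1 stood at -0.80 ± 0.25 (adjusted p = 0.173) and Col19a1 at 0.46 ± 0.20 (adjusted p = 0.32).

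**Figure D5:**
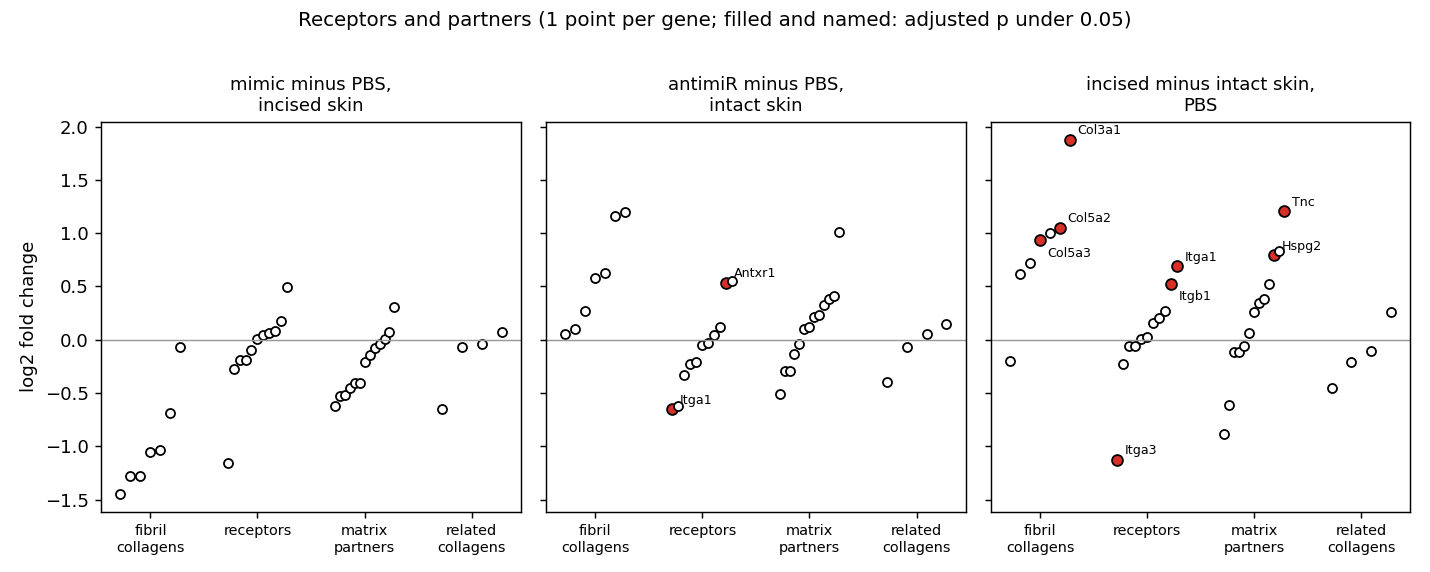
Log2 fold change (vertical axis) of each gene of the 4 lists of neighbouring genes in 3 comparisons (1 panel each); filled, named points passed an adjusted p under 0.05. All 7 fibril collagens are below 0 with the mimic and above 0 with antimiR, without a called gene in either. In incised against intact skin 8 genes of the lists are called, where 15.1% of all genes were.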

How the data were processed

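Total RNA of 12 skin samples was labelled with Cy5 and hybridised beside a Cy3-labelled reference RNA, without dye swaps. Per the file headers, the deposited scanner files hold spot and background intensity extracted with Feature Extraction 11.5.1.1, with probe positions on mm9. A log2 table of the same arrays, deposited by the authors, was checked to hold processed Cy5 over Cy3 and served as an alternative.

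With limma 3.58.1 in R 4.3.3, intensities were background-corrected (normexp, offset 50) and loess-normalized within arrays, control spots were given weight 0 and then left out with outlier spots, and spots of a probe were averaged. Probes with Cy5 well above background on at least 3 of 12 arrays were kept, 28838 of 39429. Genes were named by RefSeq accession or else the file's name (1687 kept probes have none), and the brightest kept probe stood for a gene. Group means were fitted over 12 arrays with lmFit and eBayes, two-sided, with Benjamini-Hochberg adjustment over all genes or probes. A missing value, as for Col16a1, dropped that array for that gene. Tested on simulated data of 20967 genes, the fit recovered 84% of genes changed by 1 on the log2 scale in the mimic comparison. It also called 10 unchanged genes. The simulated noise was independent between arrays and held no slide effect. The 84% therefore checks the fit and does not give its power on these arrays. The number of arrays limits the precision.

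Genes named were all 8 collagens, list members called (the 4 of smallest p if more, the 2 of smallest p if none), and the 3 most like genes by correlation, of which 1 is not reported here. The 8 genes, the 4 neighbour lists and the 9 marker lists were chosen with earlier results of these data known. Alternatives covered background, dye and array scaling, the probe filter and rule, the samples fitted, slide and replicate blocks, and omitted arrays.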

Additional observations from a re-analysis of the deposited data

Results flagged for a closer look

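At the Col16a1 probe with the miR-29 seed match, A_55_P2124751, the mimic effect in incised skin differed from the antimiR effect in intact skin. The difference itself was tested, and agent and skin state cannot be told apart in it. The mimic effect minus the antimiR effect was -1.18 ± 0.22 on the log2 scale (limma, adjusted p = 0.028 over probes). The 3 antimiR arrays were above all intact PBS arrays, where 13% of all probes were separated upward. The mimic effect of -0.43 did not pass by itself, and the mimic and incised PBS arrays overlapped. The adjusted p ran from 0.0248 to 0.0873 with 1 array left out and from 0.0144 to 0.438 under the processing alternatives.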

How the results depend on the processing

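Every sign and non-call of the 8 genes in the mimic comparison held under the alternatives, except that the number called was 2 (main 0) with only the compared groups fitted. In the antimiR comparison the number called (main 0) was 1 with the program's processed signals, 1 with the mean over probes and 1 with trend and robust variance, each time Col16a1, and 2 with slide as a fixed block. In incised against intact skin the number called (main 1) was 0 with the deposited table, with only the compared groups and with the fixed slide block, where Col12a1 stood at 0.74, 1.64 and 0.76. With 1 array left out the count ran from 0 to 1 in both. The cause was not tested.

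Values near 0 turned sign. In the antimiR comparison Col6a5 was 0.066 without background correction, 0.14 with processed signals, 0.16 with Cy5 alone and 0.085 with the fixed slide block. Col6a6 was 0.030 with Cy5 alone and 0.19 with that block, which also gave 0.81 for Col6a2, 0.76 for Col12a1 (gene and probe A_55_P2062469) and 0.048 for Col14a1. The random slide block gave 0.016 for Col6a2. In incised against intact skin Col6a6 was -0.13 with processed signals, -0.28 with the deposited table and -0.053 with the fixed block, which gave -0.30 for Col16a1 (gene and probe A_55_P2056739). With 1 array left out, the antimiR values ran from -0.23 to 0.16 for Col6a1, -0.56 to 0.21 for Col6a2, -0.085 to 0.070 for Col6a5, -0.15 to 0.047 for Col6a6 and -0.53 to 0.37 for Col12a1 (also probe A_55_P2062469), and Col6a6 in incised against intact skin ran from -0.026 to 0.23.

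The difference of effects at A_55_P2124751 lost its call with Cy5 alone (-0.80), with the fixed slide block (-1.18), with the replicate number as a block (-1.18, adjusted p = 0.0513) and in 7 of 12 omissions. That block also ended the antimiR call at A_55_P2056739 (0.71, adjusted p = 0.0507) and no other. Deviations of same-numbered arrays from their group means correlated from -0.43 to 0.28 across genes. Arrays of unlike number were not compared, so these values cannot tell whether the numbers pair the samples. The difference of effects has no value with only the compared groups, since it uses all 4. For incised against intact skin the fixed slide block called 12 of 22144 genes, against 3344 in the main fit. Between-array scaling, no probe filter and a filter on all 12 arrays left the counts at their main values. The kept probes of Col6a5 and Col6a6 were well above background on 5 and 4 of the 12 arrays, so their values rest largely on dim spots.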
